A study of Mus musculus with 115 samples.

Results

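C1ql1, C1ql2 and C1ql3 encode secreted proteins with a globular domain like that of complement C1q, and were followed here as 3 of the 22870 genes counted in single dentate granule cells of the mouse. The genes were selected on measured values, namely the low C1ql2 counts of treated cells in these data, with its relatives added by family, so their levels by group are a description. The study asked how granule cells whose axons cross to the other hippocampus compare with those whose axons do not, with and without epileptic injury. All mice carried the Rbp4-Cre transgene. All received retroAAV-EGFP in the right ventral hippocampus to label granule cells whose axon reaches that side, and AAV.cDIO-mCherry in the left hippocampus. The mCherry virus was given together with saline or with kainic acid (KA), which activates glutamate receptors and provokes seizures. The cytosol of single cells was drawn into a patch pipette on the left side 2 weeks later, whether or not the cell carried mCherry. EGFP depends on uptake of the retrograde virus, so a cell without it (EGFP-) may still have a crossing axon.

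The 95 cells kept by the authors came from 115 labelled cells. Of the saline cells, 27 were EGFP- and 5 were EGFP+. Of the KA cells, 36 were EGFP- and 27 were EGFP+. The study states that the 4 groups, in that order, came from 3, 3, 3 and 9 mice, and no label gives the mouse of a cell. A group was therefore treated as a single sample, no test was made between groups, and every SD is over cells. The cells had between 1277978 and 56183007 counts, with a median of 5221619. Cell titles are numbered M1 to M48 and M201 to M272. Saline cells occur only from M201 on, and median genes per KA EGFP- cell were 6974 in titles M1 to M48 and 3707 in titles M201 to M272, so values within titles M201 to M272 stand beside the pooled ones. Microglial transcripts made up at least 0.1% of counts in 11, 4, 5 and 10 cells of the groups in the order above. The granule cell gene Prox1 was counted in 23 of 27, 2 of 5, 26 of 36 and 25 of 27 cells.

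C1q-like proteins are released by neurons and gather receptors and adhesion proteins at synapses. At mossy fibres, the axons of granule cells, C1ql2 and C1ql3 bind neurexins on the axon and kainate receptor subunits on the CA3 dendrite, and C1q-like proteins also bind the adhesion receptor Adgrb3 (BAI3). C1ql1 is best known from climbing fibres of the cerebellum and from oligodendrocyte precursors. Bcl11b, a transcription factor of granule cells, is known to act upstream of C1ql2.

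On GRCm38, with GENCODE gene models, C1ql2 lies on the plus strand of chromosome 1 (120340582 to 120343174), C1ql3 on the minus strand of chromosome 2 (13003457 to 13011806) and C1ql1 on the minus strand of chromosome 11 (102939264 to 102946688). Each has 2 exons, which sum to 2000, 2535 and 1473 bases in that order. The coding sequences of C1ql2 and C1ql3 were identical at 76.0% of their aligned bases, those of C1ql1 and C1ql3 at 74.9%, and those of C1ql1 and C1ql2 at 73.4%. The longest run of bases that C1ql2 and C1ql3 transcripts share is shown because a read inside it could come from either gene:
C1ql2 and C1ql3, 38 coding bases: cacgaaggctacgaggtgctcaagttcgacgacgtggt
No window of 50 bases was shared by any pair of the 3 transcripts, so a read that matches over 50 bases fits only 1 of the genes.

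The promoter of C1ql2 is shown because no other gene had a lower difference after KA in EGFP- cells. RefSeq gives it as chr1:120340332-120340581 on the plus strand of GRCm38.p6, and the capitals mark the E-box, the motif of basic helix-loop-helix factors:
C1ql2, 250 bases before the start: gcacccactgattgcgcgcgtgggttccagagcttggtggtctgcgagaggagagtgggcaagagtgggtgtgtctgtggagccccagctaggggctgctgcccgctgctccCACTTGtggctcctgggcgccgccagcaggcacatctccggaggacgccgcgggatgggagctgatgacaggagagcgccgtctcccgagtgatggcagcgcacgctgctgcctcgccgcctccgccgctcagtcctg
The stretch was 68.8% G and C, against a median of 52.4% over the same window of 32851 promoters. It held 1 E-box (CANNTG, on either strand), which 66.2% of all promoters held. On both strands it held no match to the cAMP response core site TGACG (17.8% of promoters), the AP-1 site TGANTCA (6.75%), the Egr-type box GCGNGGGCG (4.70%), CCAAT (33.8%) or TATAAA (12.4%). These are letter matches in 1 window and give no information on binding.

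C1ql2 was abundant in most saline granule cells and was not counted in most KA cells. Saline EGFP- cells had between 0 and 5161 counts per 1000000 (CPM), with a median of 642, and 21 of 27 reached 100 CPM. KA EGFP- cells had between 0 and 881 CPM with a median of 0, and 8 of 36 reached 100 CPM. KA EGFP+ cells had between 0 and 1244 CPM with a median of 0, and 10 of 27 reached 100 CPM. The groups overlapped: 1 KA EGFP- cell (881 CPM) and 2 KA EGFP+ cells (653 and 1244 CPM) lay at or above the saline EGFP- median. After KA, 26 of 36 EGFP- and 15 of 27 EGFP+ cells had no C1ql2 count, and 1 KA cell had a value above 0 and below 10 CPM (6.04 CPM). Of the KA cells with counts, 9 of 10 EGFP- and 10 of 12 EGFP+ cells lay below the saline EGFP- median. A count of 0 in those KA cells allowed at most between 0.0534 and 1.81 CPM, if 3 counts are taken as the limit in each cell. This limit covers counting error only, and transcripts lost before sequencing were not measured.

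On the scale of log2(CPM + 1), mean C1ql2 was 8.0004 (SD 3.40, n = 27) in saline EGFP- cells and 2.04 (SD 3.49, n = 36) in KA EGFP- cells, a difference of -5.96 that exceeded both SDs. It was the lowest of 10302 genes counted in at least 20% of the cells of either group, whose median difference was 0.42. A difference of at least 2 in size, which is 4-fold on this scale, is called here: 2.13% of the genes were called lower and 6.79% higher, and of the 2 members among them C1ql2 was called lower and C1ql3 was not called. Since C1ql2 was chosen with this contrast known, nothing is read from its rank. Within titles M201 to M272 the KA EGFP- mean was 1.13 (SD 2.99, n = 15) and the difference -6.87, with 11.1% of 9524 genes called lower and 1.59% higher. Only 2 of those 15 KA cells had C1ql2 counts (283 and 452 CPM), whereas 26 of 27 saline EGFP- cells did. Without cells whose microglial share reached 0.1% the difference was -6.92 (31 and 16 cells).

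Summed counts gave C1ql2 760 CPM in saline EGFP- cells (95% Poisson interval 755 to 766) and 54.5 CPM in KA EGFP- cells (53.6 to 55.3). They gave 527 CPM in saline EGFP+ cells (516 to 538) and 185 CPM in KA EGFP+ cells (183 to 187). Deeper cells weigh more in these sums, and the intervals cover counting error only, since reads without molecular identifiers are not independent molecules. Thinned to 1000000 counts per cell, C1ql2 was counted in 92.6% of saline EGFP- cells (Clopper-Pearson 95% interval 75.7 to 99.1), 27.8% of KA EGFP- cells (14.2 to 45.2) and 44.4% of KA EGFP+ cells (25.5 to 64.7). All 5 saline EGFP+ cells had counts (interval 47.8 to 100%). These intervals treat cells as independent and leave out differences between mice.

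A few saline cells also had little C1ql2. The saline EGFP- cells included 1 with no count and 3 with fewer than 10 CPM, and the 1 with no count had 4.71% microglial transcripts, the highest share of any kept cell. The next saline EGFP- values were 66.9 and 69.4 CPM, so low cells stood apart from the others in this group too. The part of other cells' RNA in these low values was not tested.

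In title order, runs of KA and saline cells alternate from title M201 on, and C1ql2 went with the treatment in each run. It was counted in 6 of 6 saline cells of titles M201 to M208, 0 of 8 KA cells of M209 to M216, and 7 of 8 saline cells of M217 to M232. It was counted in 1 of 4 KA cells of M233 to M238, 18 of 18 saline cells of M241 to M264, and 2 of 6 KA cells of M265 to M272. C1ql2 reached 10 CPM in 14 of the 18 saline cells of M241 to M264, the lowest of which had 0.206 CPM. In KA titles M1 to M48 it was counted in 19 of 45 cells. The saline medians of the 3 runs were 618, 971 and 433 CPM, and the medians of all 4 KA runs were 0. The labels that record quality control do not match the cells of the kept table, which raises the question of shifted labels, so the comparison was repeated with cells whose neighbouring titles carry the same label. The difference for C1ql2 between KA and saline EGFP- cells was then -6.51 (21 and 18 cells).

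**Figure D1:**
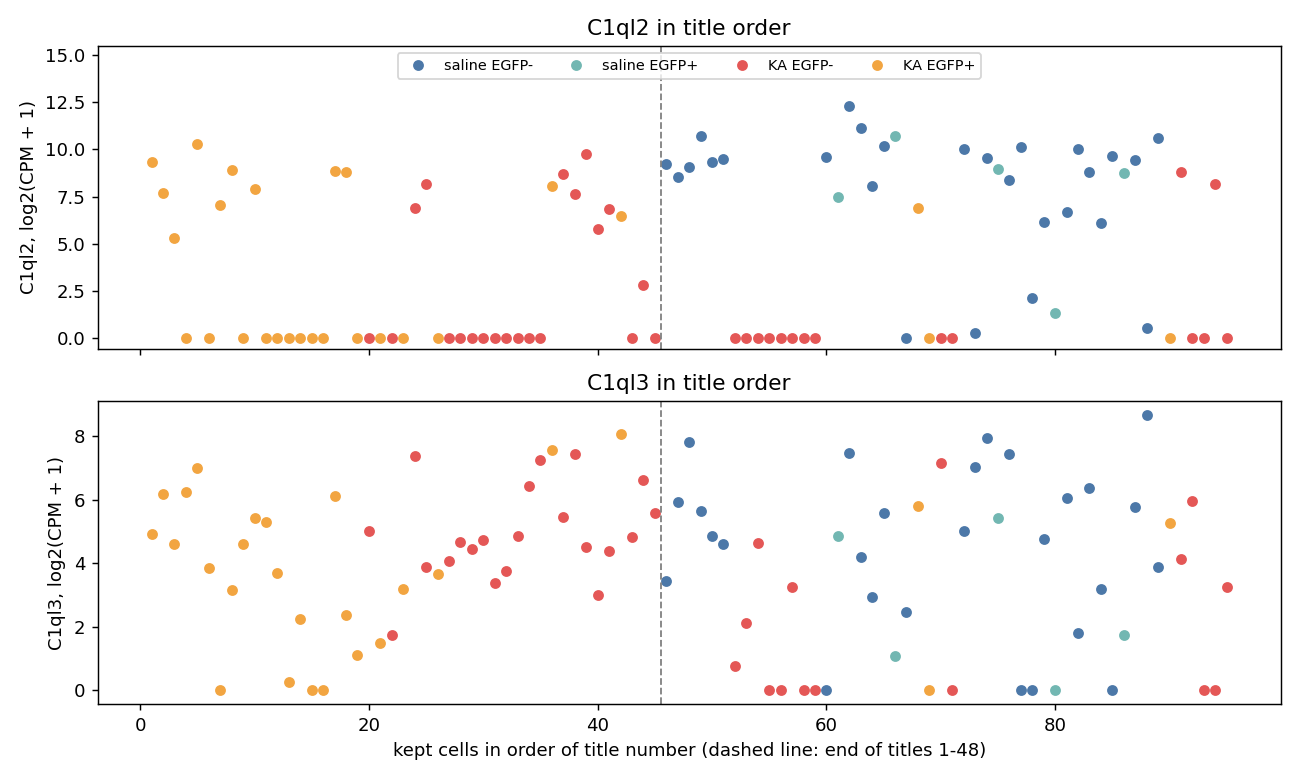
C1ql2 (top) and C1ql3 (bottom) as log2(CPM + 1) in the 95 kept cells in order of title number, coloured by group, with a dashed line after the last cell of titles M1 to M48. To the right of the line C1ql2 is mostly high in the 3 runs of saline cells and mostly at 0 in the 3 runs of KA cells. C1ql3 values of the runs overlap more. Their means were 5.39, 3.58 and 4.17 in the saline runs and lower, at 1.35, 3.24 and 3.11, in the KA runs.

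C1ql3, the paralogue with which C1ql2 shares the mossy fibre synapse, was counted in most cells of every group. Saline EGFP- cells had between 0 and 407 CPM with a median of 28.3, and KA EGFP- cells between 0 and 173 CPM with a median of 18.4. KA EGFP+ cells had between 0 and 270 CPM, with a median of 13.5. Counts after thinning were found in 23 of 27, 29 of 36 and 22 of 27 of these cells. The ranges overlapped throughout, and 10 of 36 KA EGFP- and 11 of 27 KA EGFP+ cells reached the saline EGFP- median.

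Mean C1ql3 on the log2 scale was 4.55 (SD 2.59) in saline EGFP- and 3.75 (SD 2.40) in KA EGFP- cells, a difference of -0.81, smaller than either SD. This pooled value joins KA cells of unlike title series. C1ql3 was counted in all 21 KA EGFP- cells of titles M20 to M48 (mean 4.93, SD 1.48) and in 8 of the 15 of titles M201 to M272 (mean 2.09, SD 2.49). The difference between the series was 2.84 for C1ql3 and 1.56 for C1ql2, where the median over 10774 genes was 1.42, with 0.371% called lower and 33.4% higher. Within titles M201 to M272 the KA minus saline difference of C1ql3 was -2.46 (15 and 27 cells), past the size called here, where the median of all genes was -0.50 and 11.1% of genes were called lower. Neither value is above 0, so no higher C1ql3 was measured in the KA EGFP- cells, pooled or within the series that holds both treatments. Summed C1ql3 counts came to 53.6 CPM for saline and 34.7 CPM for KA EGFP- cells.

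The C1ql3 values carry a limit of their own. Pter, a gene next to C1ql3 on the opposite strand, is separated from it by 1 base in GENCODE, and the RefSeq models of the pair overlap by 1568 bases. C1ql3 exons also overlap the unclassified models Gm37811 and Gm37824 on the opposite strand, and the library does not record strand. Pter was counted in 19 of 27 saline EGFP-, 24 of 36 KA EGFP- and 21 of 27 KA EGFP+ cells. C1ql3 was counted without Pter in 6, 7 and 2 cells of these groups. Reads of C1ql3 and of genes on the other strand cannot be told apart where the models used for counting overlap. Exons of C1ql2 and C1ql1 overlap no other GENCODE gene.

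C1ql1 was counted in 2 of the 95 cells (2.11%, Clopper-Pearson 95% interval 0.256 to 7.40%). A saline EGFP- cell had 556 counts (111 CPM), and a KA EGFP- cell had 140 counts (22.7 CPM). The saline cell also had counts of 3 of 6 oligodendrocyte precursor markers (Pdgfra, Olig1 and Sox10), which with the others summed to 1232 CPM, and 2.21% microglial transcripts. In the KA cell all 6 of these markers were at 0. C1ql4, the remaining member of the family, was counted in 0 of 95 cells. This allows a share of up to 3.16% of cells if 3 cells are taken as the limit. Neither gene was therefore detected in more than a single cell of any group.

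Co-detection shows how the paralogues were combined within cells. Of 27 saline EGFP- cells, 22 had counts of both C1ql2 and C1ql3, 4 of C1ql2 alone, 1 of C1ql3 alone and 0 of neither. Of 36 KA EGFP- cells, 9 had both, 1 C1ql2 alone, 20 C1ql3 alone and 6 neither. Of 27 KA EGFP+ cells, 11 had both, 1 C1ql2 alone, 12 C1ql3 alone and 3 neither. In titles M201 to M272, 7 of the 15 KA EGFP- cells had C1ql3 alone and 6 neither, and 3 and 10 when at least 10 CPM was asked for. C1ql3 alone was thus the most frequent state of all KA EGFP- cells but not of those titles at 10 CPM, while among KA EGFP+ cells it was about as frequent as both together. After thinning, these 2 states held 11 KA EGFP+ cells each. Before thinning, the 9 cells with no C1q-like count at all were KA cells, 7 of them from titles M201 to M272.

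**Figure D2:**
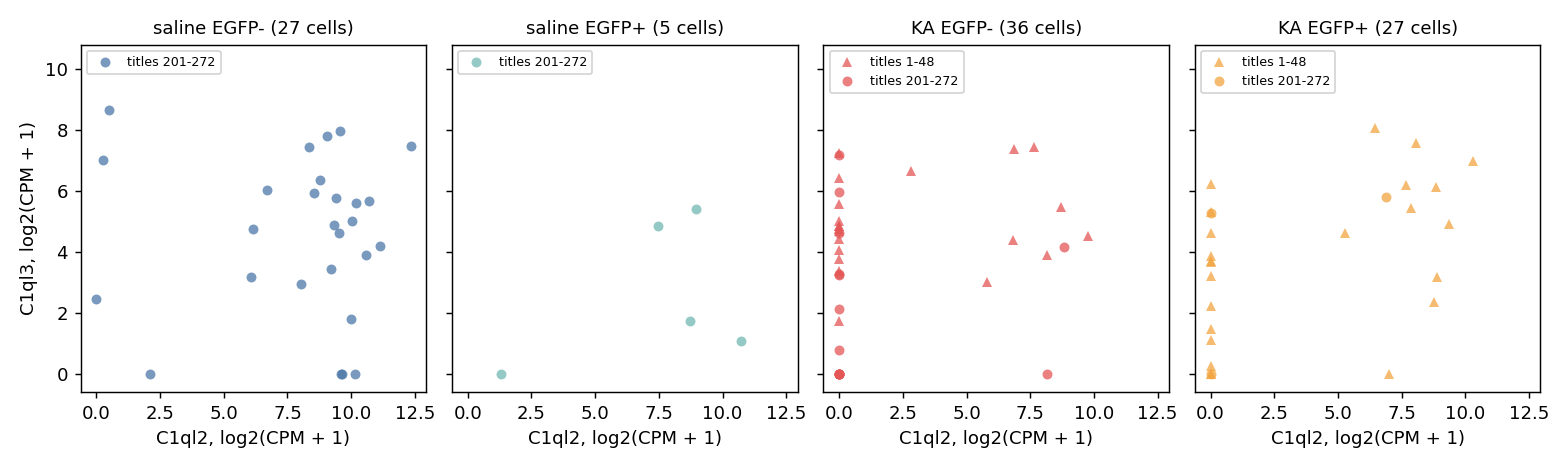
C1ql3 against C1ql2 in single cells as log2(CPM + 1), with 1 panel per group and the title series as symbols. KA cells form a column at C1ql2 of 0 whose C1ql3 values span from 0 to the level of the other cells, and 20 of the 36 KA EGFP- cells lie on it above 0.

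The levels of the paralogues within cells did not mirror each other. The correlation of C1ql2 and C1ql3 over cells was r = -0.03 (Spearman rho -0.10, n = 27) in saline EGFP- cells. Among KA EGFP- cells the value was r = 0.20 (rho 0.19, n = 36), and 0.16 (n = 21) and 0.01 (n = 15) within the title series. In KA EGFP+ cells it was r = 0.48 (rho 0.45, n = 27), where C1ql3 also correlated with the number of genes counted (r = 0.52). These are descriptions over cells, some of which share a mouse and which differ in depth.

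Per kilobase of exon, which puts the genes on a common scale, C1ql2 made up most of the family's transcripts in every group. The sum of the 3 genes averaged 441 CPM per kb (SD 519) among saline EGFP- cells. It averaged 53.6 (SD 94.2) among KA EGFP- and 96.6 (SD 152) among KA EGFP+ cells. The share of C1ql2 in these sums was 93.1%, 72.8% and 83.1%, held after KA by the 10 of 36 and 12 of 27 cells with counts. Mean C1ql3 per kb was 27.6, 14.2 and 16.3 CPM. C1ql3 exceeded C1ql2 per kb in 3 of 27 saline EGFP-, 22 of 36 KA EGFP- and 13 of 27 KA EGFP+ cells. In saline EGFP- cells the median of the sum was 354 CPM per kb, and in KA EGFP- cells 10.6, so the C1ql3 measured in KA cells did not bring the family sum to the saline level.

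EGFP+ cells, those with a labelled crossing axon, had somewhat more C1ql2 than EGFP- cells after KA, by less than the SD over cells. Mean C1ql2 was 3.53 (SD 4.13, n = 27) in KA EGFP+ and 2.04 (SD 3.49, n = 36) in KA EGFP- cells, a difference of 1.49. C1ql3 differed by 0.04 (3.79, SD 2.49, against 3.75, SD 2.40). No member was called among 10633 genes, of which 0.150% were called lower and 1.23% higher. EGFP+ cells alone fill titles M1 to M19, and where both classes occur, in titles M20 to M48, C1ql2 differed by 0.21 and C1ql3 by -0.13 (5 and 21 cells). Over titles M1 to M48 these differences were 0.99 and -1.14, and over titles M201 to M272, with 3 EGFP+ cells, 1.17 and 1.61. With cells between titles of the same label, the pooled C1ql2 difference was 2.63 (19 and 21 cells), and with a pseudocount of 0.1 it was 2.05, both past the size called. In titles M1 to M48 all 12 microglial markers were higher in EGFP+ cells. Without cells whose microglial share reached 0.1%, the pooled differences were 1.01 for C1ql2 and -0.47 for C1ql3 (17 and 31 cells).

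The 5 saline EGFP+ cells had C1ql2 at 1.45, 174, 426, 499 and 1689 CPM, so that 4 reached 100 CPM and 1 was near 0. Their C1ql3 values were 0, 1.11, 2.35, 28.2 and 41.9 CPM, with 3 of the 5 below 10 CPM. Mean C1ql2 was 7.43 (SD 3.63), a difference from saline EGFP- cells of -0.57. Without the cell at 1.45 CPM that difference was 0.97. Mean C1ql3 was 2.62 (SD 2.39), a difference of -1.93, and between -2.63 and -1.28 when any of the 5 cells was left out. It passed the size called on the authors' normalized signal (-2.55) and in other alternatives, so whether C1ql3 is called depends on the setting. On CPM no member was called, while 11.6% of 12082 genes were called lower and 4.00% higher. Microglial markers summed to between 13.1 and 45698 CPM in these cells, with a median of 25352, and to a median of 268.3 CPM in saline EGFP- cells. Only 1 of the 5 had a microglial share under 0.1%, the cell at 1.45 CPM of C1ql2, so the share and the group cannot be told apart.

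KA against saline in EGFP+ cells gave a C1ql2 difference of -3.90, of about the size of the SDs (4.13 and 3.63). It was -5.44 without the saline cell at 1.45 CPM and -3.08 without the one at 1689 CPM, and -5.14 within titles M201 to M272 (3 and 5 cells). C1ql2 was called lower, as were 3.50% of 12862 genes, while 24.5% were called higher. C1ql3 differed by 1.16, and by 0.51 to 1.86 when any of the saline cells was left out, where the median of all genes was 0.84. Within titles M201 to M272 C1ql3 differed by 1.07 (3 and 5 cells), where the median of all genes was -0.16. The C1ql3 differences of 1.16 and 1.07 were smaller than the size called. With the microglial limit only the saline cell at 1.45 CPM remained, and the C1ql2 difference became 2.09. From highest to lowest mean C1ql2, the groups were saline EGFP-, then saline EGFP+, then KA EGFP+, then KA EGFP-, in which the saline neighbours (0.57 apart) and the KA neighbours (1.49 apart) differed by less than their SDs. For mean C1ql3 the order was saline EGFP- (4.55), KA EGFP+ (3.79), KA EGFP- (3.75) and saline EGFP+ (2.62), with every step smaller than the SDs.

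RNA of most binding partners of C1q-like proteins was not low in granule cells after KA as that of C1ql2 was. These values come from granule cells, so they do not measure the receptors on the CA3 dendrite. Of 6 partners measured in EGFP- cells, 5 were higher after KA than after saline and 2 were called higher, with a median difference of 1.89 against 0.42 over all genes, of which 6.79% were called higher. Grik2, the kainate receptor subunit GluK2, averaged 4.30 (SD 3.37) in KA and 1.89 (SD 2.76) in saline cells, a difference of 2.41. Nrxn3, a presynaptic neurexin, had means of 4.52 (SD 3.63) and 1.35 (SD 2.10), a difference of 3.17. Adgrb3, the receptor BAI3, differed by 1.95, Grik4, the subunit GluK4, by 1.83, and Nrxn2, another neurexin, by 0.39. Within titles M201 to M272 the 4 positive differences of Adgrb3, Grik4, Grik2 and Nrxn3 were 1.30, 0.78, 1.47 and 1.23, none of them called. The BAI relatives Adgrb1 and Adgrb2 differed by 1.32 and 1.30 in the pooled comparison. Of 5 further kainate receptor and auxiliary subunits 3 were measured, with Grik5 at 1.36, Neto1 at -0.16 and Grik3 at -0.68. No cerebellin, the related family of synaptic organisers, was counted in enough cells to be measured.

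Bcl11b, upstream of C1ql2, was also lower after KA in EGFP- cells. It was counted in 21 of 27 saline EGFP- cells (0 to 770 CPM, median 69.5) and 17 of 36 KA EGFP- cells (0 to 157 CPM, median 0). The difference was -2.82 in all titles (2.17, SD 2.84, against 4.99, SD 3.68) and -3.65 within titles M201 to M272, called lower in both. Among EGFP+ cells of all titles the direction was the opposite. Bcl11b was counted in 15 of 27 KA cells (0 to 575 CPM, median 17.6) and 1 of 5 saline cells (median 0). In titles M201 to M272, which hold all saline cells, Bcl11b was at 0 CPM in the 3 KA EGFP+ cells. The opposite direction thus rests on KA cells of titles M1 to M48. Within KA EGFP- cells the levels of C1ql2 and Bcl11b were not related (r = -0.09, rho -0.01, n = 36), and 6 of the 10 cells with C1ql2 also had Bcl11b. In saline EGFP- cells r was 0.48 (rho 0.30, n = 27).

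Other genes of the mossy fibre synapse varied in direction. Of 28 listed genes 27 were measured in EGFP- cells, of which 18 were higher after KA and 9 lower, with 2 called higher and 3 called lower, where 6.79% and 2.13% of all genes were. The 3 called lower were Synpr, the vesicle protein synaptoporin (-3.33), Syn2, synapsin II (-2.79), and Cplx2, the release regulator complexin 2 (-2.66). The 2 called higher were Rab3a, a vesicle GTPase (2.22), and Nptxr, the neuronal pentraxin receptor (2.02). Within titles M201 to M272, 10 were higher and 17 lower, with 0 called higher and 7 called lower (1.59% and 11.1% of all genes), among them Synpr (-4.98), Syn2 (-6.13) and Cplx2 (-3.47). Slc17a7, the vesicular glutamate transporter VGLUT1, differed by 1.09 and by -0.42 within those titles. Slc30a3, the zinc transporter of mossy fibre vesicles, differed by -0.25 and -1.24. Some of these genes, such as Slc17a7, thus changed direction between all titles and titles M201 to M272. Most kept it, among them Synpr, Syn2, Cplx2, Slc30a3 and Rab3a (2.22 and 1.13), as did C1ql2 and Bcl11b.

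**Figure D3:**
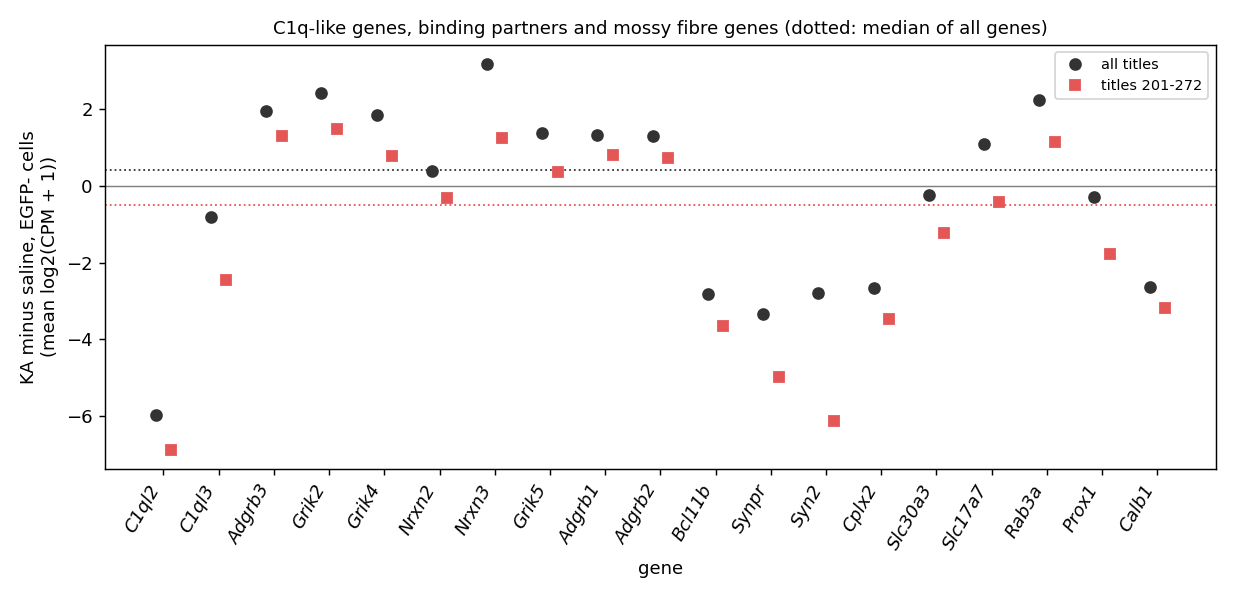
Difference of mean log2(CPM + 1) between KA and saline EGFP- cells for C1ql2, C1ql3 and selected listed genes, from all titles (black circles) and from titles M201 to M272 (red squares), with dotted lines at the median of all genes. C1ql2 has the lowest value in both sets (-5.96 and -6.87), and Adgrb3, Grik2, Grik4 and Nrxn3 lie above 0 in both.

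Of 11 granule cell markers measured, 10 were lower in KA than in saline EGFP- cells and 6 were called lower, with a median of -2.01, against 2.13% and 0.42 for all genes. Calb1, the calcium buffer calbindin, differed by -2.65 (6.04, SD 4.35, against 8.69, SD 2.85), while Prox1, the granule cell identity factor, differed by -0.30. From title M201 on Calb1 differed by -3.19 and Prox1 by -1.77, the latter counted in 7 of 15 KA and 23 of 27 saline cells. The interneuron markers summed to a median of 761 CPM in KA EGFP- and 228.4 CPM in saline EGFP- cells. Gad2, an enzyme of GABA synthesis, was counted in 14 of 36 and 4 of 27 cells (8 of 15 KA cells in titles M201 to M272). Gad1, its relative, was higher by 1.59, but Sst, the interneuron peptide somatostatin, was counted in 0 of 36 and 10 of 27 cells, and Pvalb, parvalbumin, in 1 of 36 and 5 of 27. Of the 10 KA EGFP- cells with C1ql2, 2 also had Gad2. Markers of mossy cells and of pyramidal cells had medians of at most 5.87 CPM in both EGFP- groups. The part of these markers in the C1ql2 values was not tested.

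Among the genes most like C1ql2 across the 95 cells, by Spearman correlation among 8898 genes counted in at least 25% of cells, were Camk2n1 (0.65), an inhibitor of CaM kinase II, Ppp3ca (0.64), the catalytic subunit of calcineurin, Olfm1 (0.62), Nrgn (0.59), the calmodulin-binding neurogranin, and Ncdn (0.59). These values hold the difference between treatments. Within KA cells alone (n = 63) they were 0.58, 0.44, 0.29, 0.28 and 0.34 in the same order, and within saline cells (n = 32) -0.02, 0.49, 0.53, 0.28 and 0.52. Ppp3ca and Nrgn thus had similar values in both treatments, and Camk2n1 did not. C1ql3 stood at rank 468 for likeness to C1ql2, with 0.24.

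The gene most like C1ql3 was its neighbour Pter (0.57 over 95 cells, 0.60 in KA and 0.55 in saline cells), with the limit on shared reads given above. Cdc23, a subunit of the anaphase-promoting complex, and Fermt2, an integrin activator, had 0.46 each, and Pnrc2, Afdn and Fbxo45 had 0.45, 0.45 and 0.44. Afdn encodes afadin, which anchors nectins at the puncta adherentia of mossy fibre terminals. It had means of 4.32 (SD 3.69) in saline and 4.63 (SD 3.40) in KA EGFP- cells. No gene was named for C1ql1, which was counted in too few cells.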

How the data were processed

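RNA from the cytosol of single granule cells was made into Nextera XT libraries, per the labels' protocols. The submitters' processing notes name the build GRCm38 and the tools kallisto, featureCounts, STAR and Trimmomatic, and versions and the gene models used are not given in the sources used here. The authors deposited whole-number read counts for each gene symbol, once for all 115 cells and for the 95 cells kept by their quality control. They also deposited a normalized signal for the kept cells, which is the count times 1 factor per cell (0.118 to 148). The labels call 13 of the 95 kept cells failed and 12 of the 20 cells left out passed, so cells were taken from the kept table and treatment and EGFP class from the labels. The study states 57 saline EGFP- cells that passed, more than the 41 saline EGFP- cells among the 115 labelled cells. The kept table holds 27 of these 41, and all 27 were analysed here. The 92 spike-in features (6 counts) were left out.

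Counts were scaled to CPM over all genes, and log2(CPM + 1) was averaged over cells. This mean understates fold changes of low genes. Cells were thinned to 1000000 counts for shares of cells, with exact intervals. The code was tested on simulated data. Python 3.11.15 was used with numpy 2.4.6, pandas 2.3.3 and scipy 1.17.1. Gene models came from GENCODE M21 and promoters from RefSeq. Of the 3 genes, C1ql1 was not matched in the promoter table, and the C1ql3 window is not shown.

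The members, the 17 gene lists and the comparisons were chosen with earlier results of these data known. Named genes are the members, listed genes and, for each member counted in at least 25% of cells, the 6 genes with the highest Spearman correlation. Some genes that these rules name are not reported here. The 4 comparisons of treatment and EGFP class were repeated with other scalings, pseudocounts and sets of cells.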

Additional observations from a re-analysis of the deposited data

Results flagged for a closer look

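Cells that the authors left out hold the highest value of each of C1ql2 and C1ql3. A saline EGFP- cell (title M262) with 251175 counts had 1456 C1ql2 counts, which is 5797 CPM, above the highest kept saline cell (5161 CPM). A KA EGFP+ cell (title M265) with 1107068 counts had 931 C1ql3 counts, which is 841 CPM, against at most 407 CPM in kept saline cells, and it had no C1ql2 count. These stand out as signals in cells outside the main comparisons. Other left-out saline EGFP- cells had no C1ql2 count, among them those of titles M217 (1139830 counts) and M246 (1287711 counts). Those of titles M202, M223 and M263 had 499, 1464 and 1576 CPM of C1ql2. With all cells before quality control, the KA minus saline difference in EGFP- cells was -4.44 for C1ql2 and -0.11 for C1ql3 (38 and 41 cells).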

How the results depend on the processing

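The C1ql2 difference between KA and saline EGFP- cells stayed below 0 and past the size called under all 12 alternatives, from -8.10 to -3.78, the latter from summed counts. That of C1ql3 stayed below 0 under all 12, from -2.46 to -0.11, the latter from all cells before quality control. For the EGFP classes after KA, C1ql2 lay between 0.21 and 2.63, and C1ql3 took both signs, from -1.14 to 1.61. Without cells of at least 0.1% microglial counts a single saline EGFP+ cell remained, the one with 1.45 CPM of C1ql2. The EGFP difference in saline cells was then -8.00 for C1ql2 and -4.85 for C1ql3, and the KA minus saline difference of C1ql2 in EGFP+ cells was 2.09. For C1ql1, summed counts gave -1.93 for KA minus saline in EGFP- cells (main value -0.13) and -2.53 for the EGFP classes in saline cells (main value -0.25), since a single cell holds the saline counts. Leaving out each saline EGFP+ cell in turn gave -1.39 to 0.97 for C1ql2 and -2.63 to -1.28 for C1ql3 between the saline classes. It gave -5.44 to -3.08 and 0.51 to 1.86 for KA minus saline in EGFP+ cells. The share of cells with C1ql3 was lower when at least 10 CPM was asked for, an alternative chosen after seeing the data: 66.7% of saline EGFP-, 2 of 5 saline EGFP+, 61.1% of KA EGFP- and 59.3% of KA EGFP+ cells. Within titles M201 to M272 it was 53.3% of KA EGFP- cells, and for C1ql2 13.3%. No paired analysis was possible because the result comes from no test and the numbers of cells do not pair groups. The number of cells, the unknown mice and the lack of saline cells in titles M1 to M48 limit the comparisons.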

Other observations

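Within KA titles 1 to 48 cells with C1ql2 were most frequent at the start and at the end of the title order, a pattern noted after seeing the values. In 5 successive sets of 9 kept cells, C1ql2 was counted in 6 (titles 1 to 9), 3 (10 to 18), 2 (19 to 28), 1 (29 to 38) and 7 cells (39 to 48). C1ql3 was counted in 8, 7, 9, 9 and 9 cells, and Bcl11b in 6, 5, 5, 6 and 5 cells of the same sets. The median number of genes counted was 7589, 7481, 6087, 6974 and 6224. The first 2 sets are EGFP+ cells alone, and the last holds 1 EGFP+ cell among 9. The labels do not say which of these cells came from the same mouse.

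Synpr, which encodes synaptoporin, had positive correlations with C1ql2 over cells inside each of the larger groups. The correlation was r = 0.50 (rho 0.46, n = 27) in saline EGFP-, 0.32 (rho 0.34, n = 36) in KA EGFP- and 0.54 (rho 0.68, n = 27) in KA EGFP+ cells. Among the KA EGFP- cells of titles M201 to M272 it was 0.12 (rho 0.07, n = 15), with C1ql2 in 2 of them. For Synpr and C1ql3, r was 0.51 in saline EGFP-, 0.32 in KA EGFP- and 0.20 in KA EGFP+ cells. Within the KA EGFP- cells it was -0.03 in titles M1 to M48 (n = 21) and 0.33 in titles M201 to M272 (n = 15). Synpr was counted in 9 of the 10 KA EGFP- cells with C1ql2 and in 24 of all 36.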
